A study of Sus scrofa with 10 samples.

Results

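THY1, ALCAM and CDH11 are 3 adhesion proteins of the mesenchymal cell surface. They were followed here in pig fetal fibroblasts after magnetic separation with antibody to SSEA-1, a carbohydrate epitope of the cell surface. Members were chosen by gene symbol: all 10 probe sets that the platform annotation gives to 1 of these genes alone, of 24123 probe sets on the array, or 3 of 6765 named genes. THY1 had 3 probe sets, ALCAM 4 and CDH11 3. The donors were Danish Landrace/Yorkshire x Duroc embryos at day 24; cells were taken from the body without the head and were grown in medium with 10% fetal calf serum on dishes coated with 0.1% gelatin. There were 5 arrays of cells that carried the epitope (the positive fraction) and 5 of cells that did not (the negative fraction), all of an Affymetrix design for pig. Both fractions came from the same culture conditions, with no genotype or further treatment named, and both carry replicate numbers 1 to 5. By the series text each replicate gave both fractions. Unless the replicate block or a sign-flip test is named, the tests below did not use this pairing. The series text calls the replicates biological and the title names 1 cell line; whether they were separate cultures, embryos or sorts is not said, so p-values measure the spread between these samples, which may be technical. In bulk RNA such as this, fewer cells of a type and less RNA per cell cannot be told apart.

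THY1, also known as CD90, is a small immunoglobulin-family glycoprotein held in the outer membrane leaflet by a GPI lipid anchor. It binds integrins and syndecan on neighbouring cells and signals through membrane rafts. ALCAM, also known as CD166, is a transmembrane immunoglobulin-family protein that binds itself and the lymphocyte receptor CD6, and that is shed from the membrane by metalloproteases. CDH11, or OB-cadherin, is a classical cadherin of mesenchymal and bone-forming cells, which binds itself across cell contacts and is coupled to actin through catenins. THY1 and ALCAM are among the surface proteins by which mesenchymal stromal cells are recognised. No sequence of these genes or of their probes is printed here.

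The labelled cell type was set against its markers. All 15 measured fibroblast markers, the collagen genes, VIM and FN1 among them, lay above the background level of 0.352 on the log2 scale on all 10 arrays. This level is the 95th percentile of 23 controls against absent sequences. The collagen gene COL3A1 had a mean of only 0.72, close to this level. EPCAM, the endothelial genes CDH5, KDR, TEK and TIE1 and the blood cell genes PTPRC, SPI1 and TYROBP had means below it. Other markers had means above it: 9 of 10 epithelial, among them KRT8 at 5.45, 5 of 9 endothelial and 2 of 5 blood, with HBB at 4.46. So did all 3 neural and 5 of 6 muscle markers, with DES at 7.06 and ACTC1 at 5.78. Fewer were above background on all 10 arrays: 5 epithelial, 5 endothelial, 1 blood, 3 neural and 2 muscle markers. Of all 6765 genes, 5854 had a brightest probe set with a mean above background. A mean above this level is therefore common and does little to tell cell types apart. RNA of other cell types is not excluded. On each array between 69.3% and 72.5% of probe sets were above background, and precision is limited by having 5 arrays a fraction. Poly-A spike-in controls, bacterial transcripts added to RNA before labelling, differed between the fractions, with 35 of 36 probe sets higher in the positive fraction in limma (median difference 1.31). The hybridisation controls, added after labelling, were also higher, 20 of 27 passing with a median of 0.43. So were 3 of 5 rRNA probe sets, which read between -0.33 and 1.77. The poly-A level relative to the hybridisation controls was -3.20 ± 0.32 in the positive and -4.02 ± 0.25 in the negative fraction (log2, SD, n = 5 each), with no overlap (exact two-sided permutation p = 0.00794). Differences of the 3 genes with this level as a covariate are therefore given beside the results; the part of the rRNA and hybridisation signals was not tested.

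THY1 was higher in the SSEA-1 positive fraction on 2 of its 3 probe sets, by 1.85-fold and 1.27-fold, and the first of these passed the test. On Ssc.6634.2.S1_at the positive arrays of replicates 1 to 5 read log2 signals of 3.56, 3.51, 3.84, 3.50 and 3.48. The negative arrays read 2.73, 2.78, 2.62, 2.87 and 2.47. Every positive array lay above every negative one, with a gap wider than the spread within either fraction. The difference was 0.89 ± 0.09 on the log2 scale (SE, adjusted p = 0.000329, limma with Benjamini-Hochberg adjustment over all probe sets), and in size it ranked 89th among the probe sets that are not array controls. The pairs of equal replicate number differed by 0.63 to 1.22. The call held without any single array and without any pair, where the difference ranged from 0.80 to 0.95.

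The brightest THY1 probe set, Ssc.6634.1.A1_at, read 8.40, 8.36, 8.52, 8.23 and 8.22 on the positive arrays of replicates 1 to 5. It read 7.99, 8.07, 8.20, 8.08 and 7.68 on the negative arrays. The fractions again did not overlap, but the lowest positive and the highest negative array, replicates 5 and 3, were nearly level. The mean difference was 0.34 ± 0.10 (SE, 95% confidence interval 0.13 to 0.56) and missed the threshold at an adjusted p of 0.0564 in limma. With the replicate number as a block it passed, at an adjusted p of 0.0146 in limma, and all 5 pairs were higher in the positive fraction, by 0.15 to 0.55.

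The remaining THY1 probe set, Ssc.20133.1.A1_at, showed no such difference, although it was above background on all 10 arrays. Positive arrays ran from 3.56 to 3.96 and negative arrays from 3.35 to 3.94, so the fractions overlapped almost wholly. The means were 3.69 ± 0.16 and 3.69 ± 0.23 (SD, n = 5 each), with a 95% confidence interval of the difference from -0.25 to 0.24. That interval excludes the differences of both other THY1 probe sets.

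The arrays at both ends of the poly-A range were also at the ends for THY1. Positive replicate 3 had the highest poly-A level of all arrays, -2.66, and the highest reading on all 3 THY1 probe sets. Negative replicate 5 had the lowest poly-A level, -4.32, and the lowest reading on all 3. Negative replicate 2, next lowest in poly-A level at -4.25, read second highest of the negative arrays on Ssc.6634.2.S1_at. Ssc.20133.1.A1_at had equal fraction means. Whether the poly-A level has a part in these readings was not tested. With the poly-A level as a covariate, Ssc.6634.2.S1_at differed by 0.55 ± 0.14 (SE, unadjusted p = 0.00205, adjusted p = 0.160 in limma) and Ssc.6634.1.A1_at by 0.0090 ± 0.16. Ssc.20133.1.A1_at then read -0.42 ± 0.17 (SE, adjusted p = 0.333 in limma). Since the poly-A levels of the fractions do not overlap, these values rest on extrapolation by the model. Among all probe sets 0.0497% passed in that fit, and of the 10 probe sets of the 3 genes 0 did, with 3 at an unadjusted p under 0.05.

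**Figure D1:**
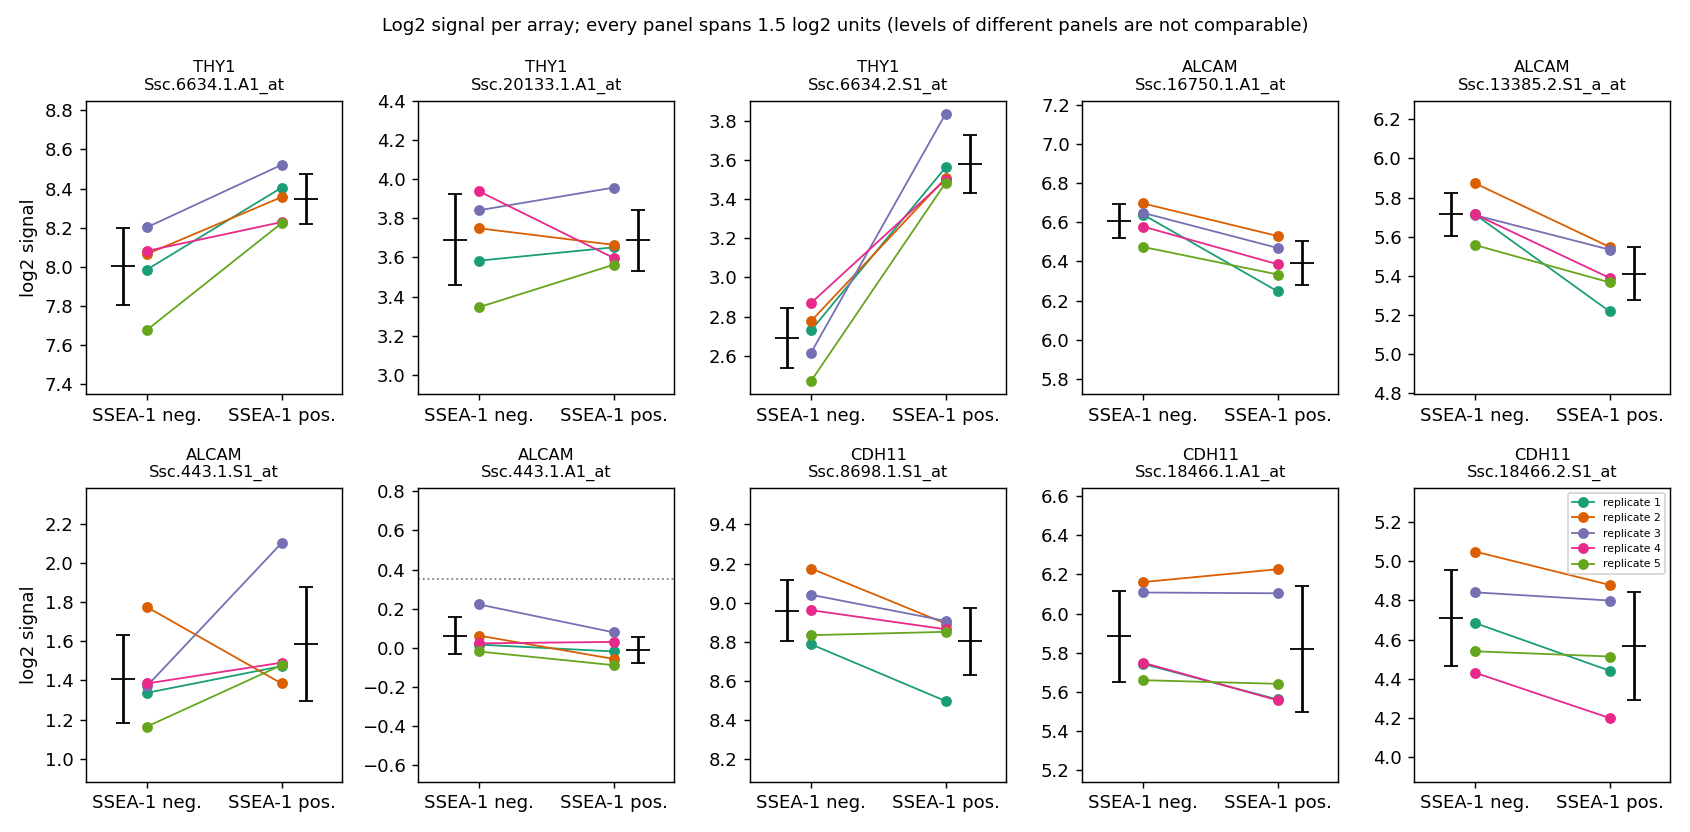
Log2 signal of the 10 probe sets on each array, by fraction; each colour is a replicate number, joined across the fractions, and black bars show the mean and SD of 5 arrays. THY1 Ssc.6634.2.S1_at separates the fractions at 3.58 against 2.69, both brighter ALCAM probe sets fall in every pair, and the dotted line in the panel of ALCAM Ssc.443.1.A1_at is the background level of 0.352.

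ALCAM was lower in the SSEA-1 positive fraction on its 2 brightest probe sets, by 1.23-fold and 1.16-fold, and the first of these passed the test. On Ssc.13385.2.S1_a_at the positive arrays of replicates 1 to 5 read 5.22, 5.55, 5.53, 5.39 and 5.37. The negative arrays read 5.71, 5.87, 5.71, 5.71 and 5.56. The fractions did not overlap, though positive replicate 2 and negative replicate 5 lay within 0.01 of each other. The difference was -0.30 ± 0.08 (SE, adjusted p = 0.0472 in limma), and all 5 pairs were lower, by -0.50 to -0.18. This call was close to the threshold: it held without positive replicate 2 and without negative replicate 5 and was lost without any one of the other 8 arrays, at adjusted p-values of up to 0.110. It was also lost when quantile normalization was repeated, at an adjusted p of 0.0546, and with cyclic loess, at 0.0637. The probe set did pass with the replicate number as a block, at -0.30 ± 0.07 (SE, adjusted p = 0.0217 in limma). With the poly-A covariate the probe set read -0.37 ± 0.16 (SE, unadjusted p = 0.0359, adjusted p = 0.365 in limma).

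The brightest ALCAM probe set, Ssc.16750.1.A1_at, read 6.25, 6.53, 6.47, 6.39 and 6.33 on the positive arrays of replicates 1 to 5. It read 6.64, 6.70, 6.65, 6.58 and 6.47 on the negative arrays. Positive replicate 2 lay above negative replicate 5, and the other arrays kept their order. The difference of -0.21 ± 0.074 did not pass (SE, 95% confidence interval -0.37 to -0.05, adjusted p = 0.113 in limma), nor did it with the replicate block, at an adjusted p of 0.0707 in limma. All 5 pairs were lower in the positive fraction, by -0.39 to -0.14. With the poly-A covariate the difference was -0.28 ± 0.14 (SE, adjusted p = 0.469 in limma).

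The other 2 ALCAM probe sets were dim. Ssc.443.1.S1_at read from 1.38 to 2.10 on the positive arrays, with its highest value in replicate 3, and from 1.16 to 1.77 on the negative arrays. Its difference of 0.18 ± 0.14 ran against those of the brighter probe sets but did not pass (SE, adjusted p = 0.543 in limma). Ssc.443.1.A1_at, whose name differs from the former in a single letter, lay below background on all 10 arrays and measured no level of the gene.

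CDH11 gave no difference past the threshold on any of its 3 probe sets, which were all above background on every array. The brightest, Ssc.8698.1.S1_at, read 8.50, 8.89, 8.91, 8.86 and 8.85 on the positive arrays of replicates 1 to 5. It read 8.79, 9.18, 9.04, 8.96 and 8.83 on the negative arrays. Positive replicate 1 stood well below the other 9 arrays, and the rest of the 2 fractions overlapped. The difference was -0.16 ± 0.10 (SE, adjusted p = 0.424 in limma), with a 95% confidence interval from -0.37 to 0.05, so a level down to 0.775-fold of the negative fraction lies within the interval. In 4 pairs the positive array was lower, and in replicate 5 the arrays were level, at 0.02.

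The other CDH11 probe sets varied more between replicates than between fractions. On Ssc.18466.1.A1_at replicates 2 and 3 read 6.23 and 6.10 in the positive and 6.16 and 6.11 in the negative fraction. The remaining 3 replicates read 5.56 to 5.64 and 5.66 to 5.75. The mean difference was -0.066 ± 0.15 (SE, adjusted p = 0.872 in limma). Ssc.18466.2.S1_at had the same high replicates, at 4.88 and 4.80 against 5.05 and 4.84, and a difference of -0.14 ± 0.14 (SE, adjusted p = 0.647 in limma). With the replicate block its standard error halved to 0.07, all 5 pairs being lower by -0.24 to -0.03, and the adjusted p was 0.232 in limma. With the poly-A covariate the 3 probe sets read between -0.24 and -0.11, with standard errors of 0.19 to 0.28.

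Read together, 2 of the 10 probe sets passed the test, 1 of THY1 that rose and 1 of ALCAM that fell, beside 6.2% of all probe sets (2.72% higher and 3.48% lower). With the replicate block 3 of the 10 passed beside 11.7%. The fractions did not overlap for 3 of the 10, beside 6.5% of all probe sets. Of the 3 brightest probe sets, 1 for each gene, 0 passed beside 7.39% of genes, although those of THY1 and ALCAM had unadjusted p-values of 0.00384 and 0.0122 in limma. With the replicate block 1 of the 3 passed, that of THY1, beside 14.3%.

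**Figure D2:**
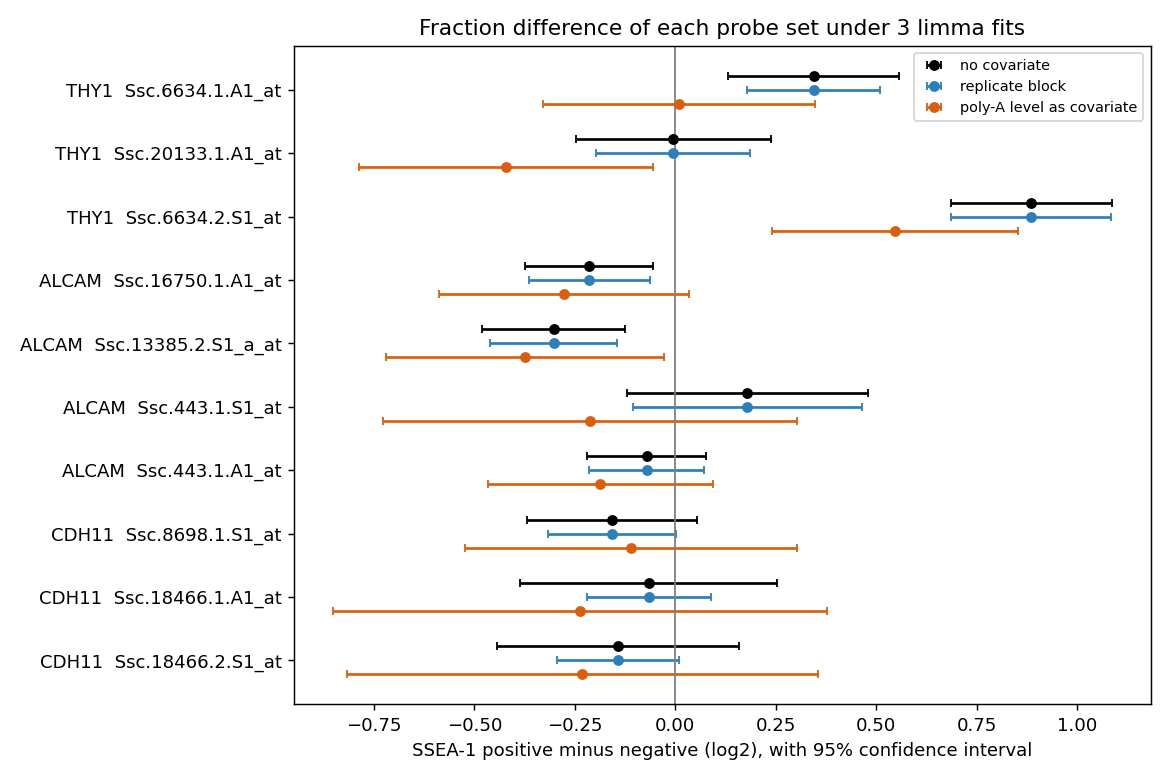
Positive minus negative fraction for each probe set on the log2 scale, with 95% confidence intervals, in limma alone (black), with the replicate block (blue) and with the poly-A covariate (orange). The intervals of THY1 Ssc.6634.2.S1_at stay above 0 in all 3 fits, while THY1 Ssc.6634.1.A1_at moves from 0.34 to 0.0090 with the covariate.

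Whether the probe sets of a gene gave the same fraction difference was tested within arrays, where a shift common to all probe sets of an array drops out. Effects of normalization or background that depend on signal level do not drop out, and the probe sets compared differ in level. Of 12 pairs of probe sets of 1 gene, 3 hold ALCAM Ssc.443.1.A1_at, which is below background, and are not read. Of the other 9 pairs, 6 differed at an adjusted p under 0.05 in exact two-sided permutation tests adjusted over all 12. No share over the pairs of all genes is at hand for this test, so the count has no background beside it. All 3 pairs of THY1 were among them, at an adjusted p of 0.0317 each in the exact permutation test. Ssc.6634.2.S1_at exceeded Ssc.20133.1.A1_at by 0.89 ± 0.07 and Ssc.6634.1.A1_at by 0.54 ± 0.08 in its fraction difference, and Ssc.6634.1.A1_at exceeded Ssc.20133.1.A1_at by 0.35 ± 0.05 (SE). The within-array values of the fractions did not overlap for any of these 3 THY1 pairs, beside 9.3% of the 3247 pairs of probe sets above background over all genes. Of those pairs 0.986% disagreed by more than the widest THY1 pair, and the median disagreement was 0.13. The THY1 probe sets thus gave 3 distinct sizes of difference, all measured on the same 10 arrays.

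The other 3 pairs that differed belonged to ALCAM, and their fractions overlapped. The 2 brightest ALCAM probe sets differed by 0.088 ± 0.027 (SE, adjusted exact permutation p = 0.0317), both being lower in the positive fraction. The dim Ssc.443.1.S1_at differed from both. Each of the 3 calls was lost without positive replicate 1 and without negative replicate 1, 4 or 5, as well as without up to 4 further arrays, the adjusted exact permutation p-values reaching 0.0816. The pair of the 2 brightest was in addition lost without positive replicate 4 or 5, at an adjusted exact permutation p of 0.0571. No pair of CDH11 probe sets passed, with differences between -0.091 and 0.077 and standard errors of 0.073 to 0.14.

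The 3 genes were compared in the same way through their brightest probe sets. THY1 moved against ALCAM by 0.56 ± 0.09 and against CDH11 by 0.50 ± 0.12 on the log2 scale (SE, adjusted exact two-sided permutation p = 0.0119 over 3 pairs of genes). In both, every positive array lay above every negative one and all 5 pairs showed the direction. Without any single array these differences ranged from 0.51 to 0.60 and from 0.41 to 0.55. Both kept an adjusted exact permutation p of 0.0119, the least this test can give. Fractions that do not overlap stay apart when an array is left out, so that p could not change and adds no support. ALCAM and CDH11 differed by -0.057 ± 0.072 (SE, adjusted exact permutation p = 0.468). A ratio within an array shows unequal change of 2 genes and not which of them changed.

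**Figure D3:**
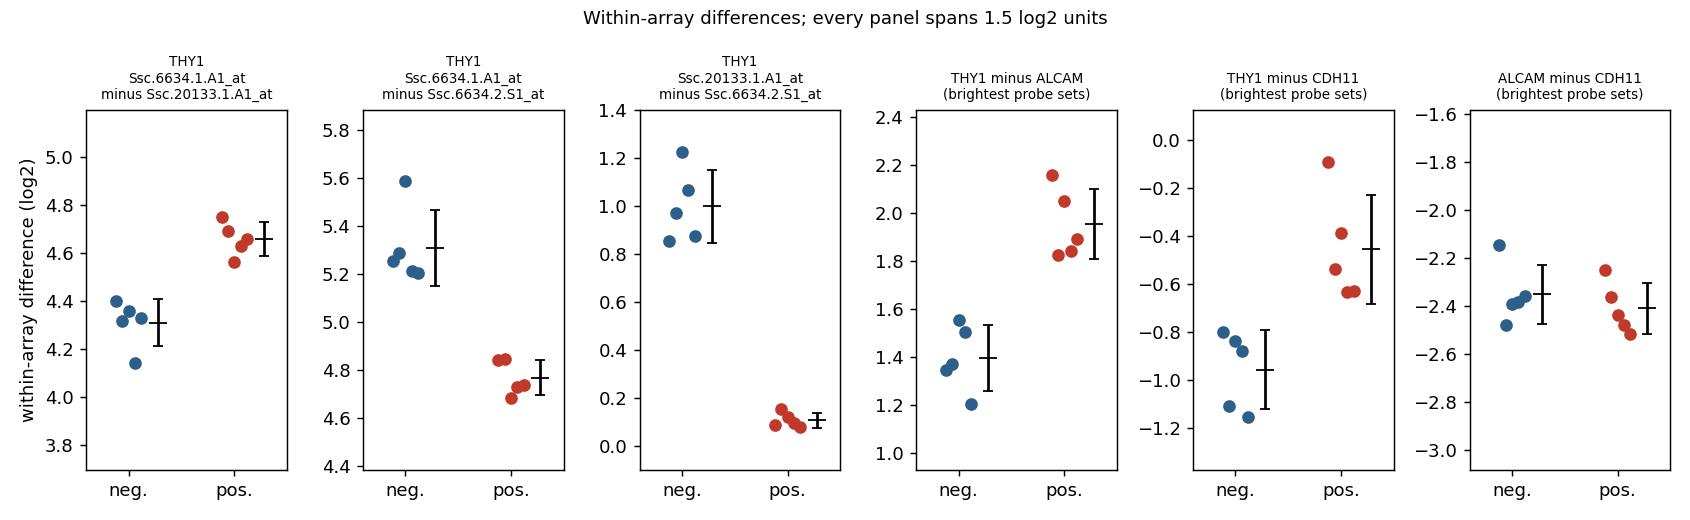
Within-array differences between the probe sets of THY1 (3 panels on the left) and between the brightest probe sets of the 3 genes (3 panels on the right), in log2 units; points are arrays, bars the mean and SD of 5 arrays, and the height of a point depends on the probe sets paired. Fractions are apart in the first 5 panels and overlap for ALCAM minus CDH11.

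Within a fraction, most probe sets of a gene followed each other from array to array, to different degrees, as described by Pearson's r of deviations from the fraction means over the 10 arrays, which share their labelling and scale. This r was 0.95 for the 2 brightest ALCAM probe sets and 0.26 to 0.62 for the other 5 ALCAM pairs, 3 of which hold the probe set below background. It was 0.91 for the 2 dimmer CDH11 probe sets, and 0.68 and 0.51 for these with Ssc.8698.1.S1_at. The THY1 probe set without a fraction difference, Ssc.20133.1.A1_at, had an r of 0.90 with Ssc.6634.1.A1_at and 0.84 with Ssc.6634.2.S1_at, which had 0.70 between them. Its arrays thus deviated in step with the other THY1 probe sets although the fraction means differed in size. The median r over the 3247 pairs of all genes was 0.29. Between genes, the brightest probe sets of ALCAM and CDH11 had an r of 0.73, and those of THY1 an r of 0.52 with ALCAM and 0.28 with CDH11.

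**Figure D4:**
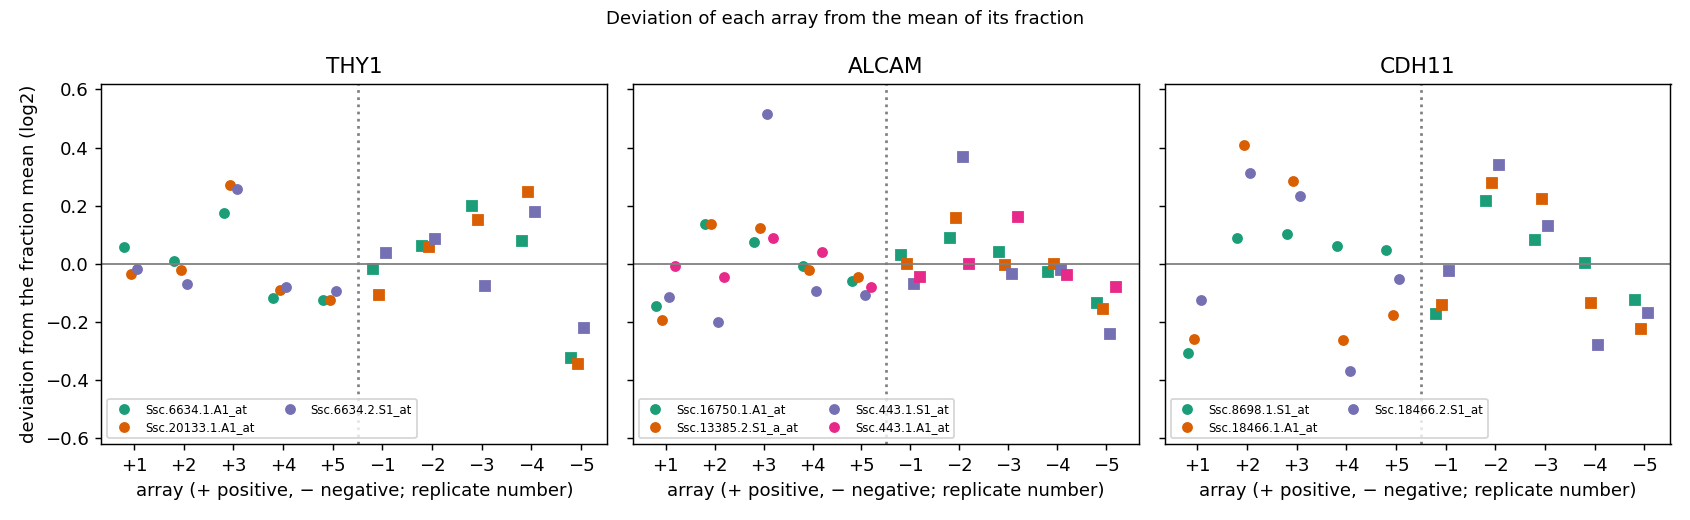
Deviation of each array from the mean of its fraction (log2) for the probe sets of each gene; circles are positive and squares negative arrays, labelled with the replicate number. Replicates 2 and 3 are high on all CDH11 probe sets in both fractions, and negative replicate 5 is low on all 3 THY1 probe sets.

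The genes whose brightest probe set was most like that of a member over the 10 arrays were sought among 5692 genes above background; r is a description that includes the fraction difference. For THY1 they were UST, a uronyl sulfotransferase, at an r of 0.97, the smooth muscle myosin light chain MYL9 at 0.96, the metalloprotease inhibitor TIMP2 at 0.95, ANKRD39 at 0.93 and GPAA1, a subunit of the enzyme complex that attaches GPI anchors, at 0.93. UST, MYL9 and TIMP2 rose, by 0.36, 0.52 and 0.54 (adjusted p = 0.0422, 0.0338 and 0.00662 in limma). The choice of genes by this r favours a rise, so these differences are no separate result. In deviations from the fraction means THY1 was nearest to NAXD, GALNT10, the muscle filament gene DES, UST and the smooth muscle gene TAGLN, at 0.93 to 0.98. DES and TAGLN differed between fractions by 0.28 and 0.19 without passing (adjusted p = 0.542 and 0.404 in limma), and DES turned to -0.48 with the poly-A covariate.

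For ALCAM the nearest over the arrays were the RAC exchange factor TIAM2 at 0.95, tropomyosin TPM1 at 0.94, UBXN4 and C2CD2 at 0.92 and the complement protease C1R at 0.91. TIAM2, C2CD2 and C1R fell by 0.63, 0.43 and 0.69 (adjusted p = 0.00615, 0.0162 and 0.0430 in limma), which the choice by r likewise favours. In deviations ALCAM was nearest to NUCB1, C1QTNF5, CUX1, C1QTNF3 and PPP2R5A, at 0.90 to 0.93. For CDH11 the nearest were FAP, a serine protease of activated fibroblasts, at 0.92, clusterin CLU at 0.91, fibronectin FN1 at 0.90, the matrix proteoglycan DCN at 0.89 and ADAMDEC1 at 0.88. FAP, CLU, FN1 and DCN were also among its 5 nearest in deviations, with UBXN4, at 0.87 to 0.94. None of the 5 genes nearest to CDH11 over the arrays passed in limma, and FAP was the closest to passing, at -0.50 with an adjusted p of 0.0665.

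Partners and relatives of the 3 genes were read from 7 lists that together name 206 genes. The array measured 93 of them, each taken from its brightest probe set. Of the 93, 4 rose and 1 fell, or 5.38% beside 7.39% of all genes (3.21% higher and 4.18% lower), and the median difference was 0.06 beside -0.0085 for all genes. With the replicate block 7 rose and 6 fell, beside 5.65% and 8.62% of all genes. With the poly-A covariate 0 passed, beside 0.0887% of genes. These shares are near the background. A gene's dimmer probe sets could differ from its brightest. Of 64 further probe sets of the 93 genes, 5 rose and 2 fell (10.9%), beside 2.72% and 3.48% of all probe sets (6.2%). Those 7 are named below, chosen after their values were seen.

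Of 28 other surface proteins of mesenchymal stromal cells 19 were measured, of which BSG rose and none fell. BSG, an immunoglobulin-family inducer of metalloproteases that also belongs to the adhesion list, read 5.04 ± 0.13 against 4.73 ± 0.08 (SD, n = 5 each), a difference of 0.31 (adjusted p = 0.0349 in limma). Its call held without positive replicate 4, negative replicate 2 or negative replicate 4 and was lost without any one of the other 7 arrays, with adjusted p-values of up to 0.0908. The surface peptidases FAP, at -0.50, and DPP4, at -0.49, did not pass (adjusted p = 0.0665 and 0.0530 in limma) and did with the replicate block (adjusted p = 0.00433 and 0.0121). The list's median difference was 0.05.

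None of the 19 measured partners of THY1, integrins, syndecan and raft kinases among them, passed in limma, nor did any with the block, and 2 had an unadjusted p under 0.05. The smallest p-values belonged to ITGB2, a leukocyte integrin chain with a mean below background, the raft protein FLOT2 and the adhesion receptor ADGRE5, at differences of 0.19, 0.21 and 0.19. The brightest probe set of the fibronectin receptor chain ITGA5 read 0.24 without passing, while a dim one rose by 0.54 (adjusted p = 0.00200 in limma). Of 17 enzymes of the GPI anchor 0 passed, with 4 at an unadjusted p under 0.05. GPAA1 read 4.58 ± 0.15 against 4.28 ± 0.15 (SD, n = 5 each), a difference of 0.31 that passed with the block (adjusted p = 0.0657 without and 0.0264 with it, in limma). PIGA, of the first step of the pathway, read -0.28 and also passed with the block (adjusted p = 0.0390). The brightest probe set of TMED10, a cargo receptor, read -0.12 without passing (adjusted p = 0.397 in limma), while a second fell by 0.29 (adjusted p = 0.0207 in limma). DPM1 and DPM2, subunits of the mannose donor enzyme of the pathway, differed by -0.20 and 0.27 without passing. The medians of these lists were 0.08 and 0.04.

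Among 9 measured partners of ALCAM, 1 rose and 1 fell. TIMP3, an inhibitor of the metalloproteases that shed ALCAM, rose by 0.84 ± 0.12 (SE, adjusted p = 0.00207 in limma) and by 0.73 on a second probe set. EZR, or ezrin, which links membrane proteins to actin, read 6.34 ± 0.16 against 6.81 ± 0.16 (SD, n = 5 each) and fell by 0.47 (adjusted p = 0.0138 in limma), in every single-array leave-out but not without both arrays of replicate 1, 3 or 5. Its relative MSN read 0.22 higher without passing (adjusted p = 0.135 in limma). RDX, of the same family, read -0.28 on its brightest probe set without passing and fell by 0.47 on a dimmer one (adjusted p = 0.0195 in limma). Of 16 other immunoglobulin-family adhesion genes BSG alone passed on its brightest probe set. CD47, the thrombospondin receptor, read 0.0013 on its brightest and 0.03 on another probe set, but rose by 0.71 on the dimmest (adjusted p = 0.000803 in limma). ICAM1, at 0.26, and EMB, at -0.39, did not (adjusted p = 0.0628 and 0.0792 in limma) and did with the block (adjusted p = 0.0442 and 0.0204).

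Of 46 other cadherins 10 were measured and 6 had a mean above background. DCHS1, a large atypical cadherin of planar polarity, rose from 2.87 ± 0.15 to 3.37 ± 0.11 (SD, n = 5 each), by 0.50 ± 0.09 (SE, adjusted p = 0.00525 in limma), and kept its call without any single array or pair. The GPI-anchored cadherin CDH13 differed by 0.27 and the epithelial CDH1, close to background, by 0.18, without passing (adjusted p = 0.145 and 0.173 in limma). FAT1, an atypical cadherin, read 0.38 and passed with the block (adjusted p = 0.0466). Among 10 catenins and junction proteins the tyrosine phosphatase PTPN1 rose by 0.49 (adjusted p = 0.0207 in limma), a call lost without positive replicate 1 or 5. A second PTPN1 probe set, whose mean of 0.32 was below background, rose by 0.30 (adjusted p = 0.0263 in limma). The actin linker LIMA1 read -0.46 and the catenin CTNNB1 0.22 without passing (adjusted p = 0.0943 and 0.118 in limma). LIMA1 passed with the block (adjusted p = 0.0323). VCL, or vinculin, read 0.16 on its brightest probe set without passing (adjusted p = 0.468 in limma). A dimmer VCL probe set, with a mean of 2.25, rose by 0.66 (adjusted p = 0.0134 in limma). The 4 other CTNNB1 probe sets read between -0.10 and 0.10.

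**Figure D5:**
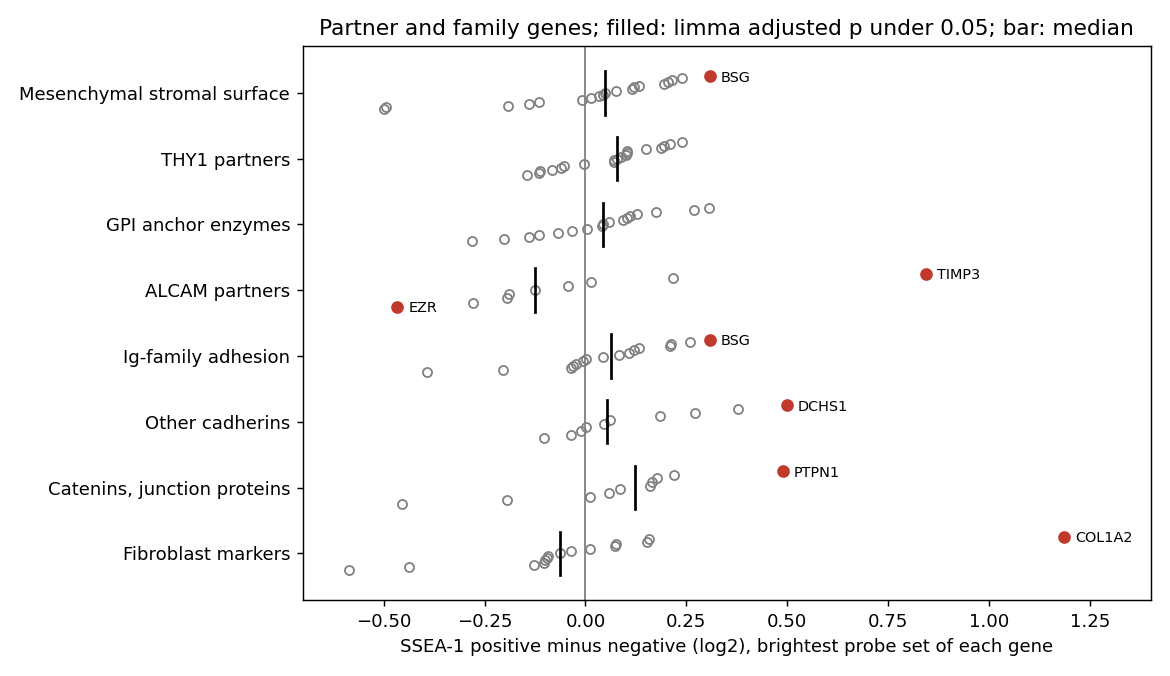
Difference between the fractions (log2) of each measured gene of the partner and family lists and of the fibroblast markers, from its brightest probe set; filled points passed limma at an adjusted p under 0.05 and are named, and vertical bars are list medians. TIMP3, DCHS1, PTPN1 and BSG lie to the right, EZR to the left, and COL1A2 is the single called fibroblast marker.

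Markers of other cells did not pass beside these differences. Of 15 fibroblast markers COL1A2 rose, by 1.19 on its brightest probe set. Its other probe set, dim at a mean of 0.50, read 0.08 without passing (adjusted p = 0.736 in limma). POSTN and PRRX1 had the next smallest p-values, at -0.59 and 0.16 without passing. POSTN passed with the block (adjusted p = 0.000737), and the median of the list was -0.06. None of 10 epithelial, 9 endothelial, 5 blood, 3 neural and 6 muscle markers passed in limma, and 4 epithelial markers had an unadjusted p under 0.05. Among the epithelial ones EPCAM and KRT19 read 0.25 and 0.40 higher (adjusted p = 0.105 and 0.166 in limma), and KRT19 passed with the block (adjusted p = 0.0272). Of the other lists, the genes with the smallest p-values were the endothelial ESAM, VWF and FLT1, at 0.07 to 0.11, the blood genes CD14, HBB and TYROBP, at -0.16 to 0.17, the neural S100B, SOX10 and MAP2, at -0.11 to -0.05, and the muscle genes DES, MYOD1 and ACTC1, at 0.09 to 0.28. The summed linear signal of the epithelial list ran from 41.9 to 101 on positive and from 42.5 to 114 on negative arrays. That of the muscle list ran from 159 to 265 and from 104 to 229, and that of the endothelial list from 12.4 to 13.4 and from 12.5 to 12.8. Blood markers summed to between 23.0 and 28.9 against 25.3 to 30.0, and neural markers to between 10.18 and 14.05 against 12.02 to 14.81. The part of these markers in the differences of THY1 and ALCAM was not tested.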

How the data were processed

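Per the submitters' processing notes, the authors summarised each array with RMA, and the deposited values are log2 signals of probe sets. Neither a version of RMA nor its background correction is given in the sources used here, which leaves differences of dim probe sets less sure. The columns of all 10 arrays were matched to samples, with fraction and replicate number read from their titles. The platform annotation gave 1 symbol to 10099 probe sets, several to 198, which were not named, and none in that table to 13826. RefSeq names of Sscrofa11.1 were matched for 9989 of the 10099 and changed none. A gene outside the 3 was read from its probe set with the highest mean.

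All 24123 probe sets were fitted in limma 3.58.1 under R 4.3.3 (lmFit, eBayes), with Benjamini-Hochberg adjustment and a threshold of 0.05. For single values per array, the exact permutation test (two-sided) ran over 252 assignments and can give no p below 0.00794. Tested on simulated arrays with 200 changed probe sets, the fit recovered 74% of 1.5-fold and 98% of 2-fold changes and made 14 false calls. The simulated noise was independent between probe sets and arrays, without replicate effects or a poly-A difference between fractions. These figures therefore need not hold for the real arrays, and changes smaller than 1.5-fold were not simulated.

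The members, lists and alternatives were chosen with earlier results of these data known. Besides all probe sets of the 3 genes, the text names, from each list, those with the 3 smallest p-values, every called member of a list with 6 or fewer calls, and the 5 genes most like each member, placeholder symbols left out. PIGA, FAT1 and genes named for a second probe set were added after their values were seen. VIM, FN1 and the markers set against background were named to check the cell type.

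Same-numbered arrays were taken as pairs, because each replicate gave both fractions according to the series text and the correlation of deviations within replicates 1 to 5 was 0.214, 0.580, 0.356, 0.119 and 0.247. Over probe sets above background, array controls left out, it was 0.249, 0.653, 0.416, 0.116 and 0.288 for the correlation within replicates 1 to 5. On that set, an array of another number correlated better for both arrays of replicate 4 and the negative array of replicate 5. Alternatives were the replicate block (fixed or random), other variance moderation and array weights, 3 scalings, a filter on level, omission of controls, the poly-A covariate with and without the block, averaging over probe sets, and omission of each array or pair.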

Additional observations from a re-analysis of the deposited data

Results flagged for a closer look

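In 7 of 96 groups of 5 arrays, 1 array stood apart from the other 4 by Dixon's criterion, which chance meets in about 1 group in 20. For THY1, positive replicate 3 was the high array, at 3.96 on Ssc.20133.1.A1_at (others 3.56 to 3.66) and 3.84 on Ssc.6634.2.S1_at (others 3.48 to 3.56). The same array was high on ALCAM Ssc.443.1.S1_at, at 2.10 (others 1.38 to 1.49), and it has the highest poly-A level. CDH11 Ssc.8698.1.S1_at was low in positive replicate 1, at 8.50 (others 8.85 to 8.91). Among the named partners, DPM2 was low in positive replicate 5 at 2.04, DPM1 was low in positive replicate 2 at 6.22, and PTPN1 was low in negative replicate 4 at 3.81 (others 4.26 to 4.39).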

How the results depend on the processing

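The THY1 probe set Ssc.6634.2.S1_at kept its call in every setting but the poly-A covariate, at 0.55, and that covariate with the replicate block, at 0.33. Ssc.6634.1.A1_at passed with the replicate block, fixed or random, and with trend and robust moderation, at 0.34 throughout, with cyclic loess at 0.36, in the unadjusted exact permutation test at 0.34, and as the mean of the THY1 probe sets at 0.41; it passed in none of 15 leave-outs (0.26 to 0.39). The THY1 probe set near 0, Ssc.20133.1.A1_at, turned sign with repeated quantile normalization (0.032), cyclic loess (0.019) and 9 leave-outs (-0.091 to 0.079).

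ALCAM Ssc.13385.2.S1_a_at lost its call with repeated quantile normalization (-0.29), cyclic loess (-0.28), the poly-A covariate (-0.37), the covariate with the block (-0.51) and 13 of 15 leave-outs (-0.34 to -0.25). ALCAM Ssc.16750.1.A1_at passed in the unadjusted exact permutation test alone (-0.21). The dim Ssc.443.1.S1_at turned to -0.21 with the covariate and -0.35 with the block beside it, and Ssc.443.1.A1_at to 0.086 with both. CDH11 Ssc.18466.1.A1_at ranged from -0.17 to 0.0028 over the leave-outs.

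Over all probe sets 1495 passed, 656 higher and 839 lower. There were 2832 with the replicate block (1246 higher, 1586 lower), 2561 with a random block (1122 and 1439), 12 with the poly-A covariate (7 and 5) and 4 with both (3 and 1). Leave-outs gave 384 to 1834 (194 to 797 higher, 190 to 1087 lower). Of the partner genes 5 passed, against 13 with the block, 12 with a random block, 11 by the mean of all probe sets, 0 with the covariate, 0 with both and 2 to 9 in leave-outs.

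The pairing enters the within-array tests as an exact sign-flip permutation test, which with 5 pairs cannot go below p = 0.0625, so no difference can pass it. It covers THY1 pairs at 0.35, -0.54 and -0.89, ALCAM pairs at 0.088, -0.39, -0.48 and -0.23, and the gene pairs at 0.56 and 0.50. On a linear scale the ALCAM pair of Ssc.13385.2.S1_a_at and Ssc.443.1.A1_at lost its call (-0.16). Leaving out single arrays, the ALCAM pairs ranged from 0.071 to 0.10, -0.48 to -0.28, -0.57 to -0.38, -0.28 to -0.18, -0.19 to -0.11 and 0.14 to 0.34, the last 2 passing in 1 leave-out each; the fourth to sixth include Ssc.443.1.A1_at, below background, and are not read; CDH11 Ssc.8698.1.S1_at against Ssc.18466.2.S1_at ranged from -0.12 to 0.056.

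Named partners and markers that turned sign, none of them called, did so with the poly-A covariate or with it and the block: DPP4 (0.095), FLOT2 (-0.056), ADGRE5 (-0.0016), DPM2 (-0.062), LIMA1 (0.15 and 0.23), KRT19 (-0.096), FLT1 (-0.0059), CD14 (-0.010 and -0.23), DES (-0.48 and -0.56) and ACTC1 (-0.12 and -0.26). Over leave-outs MAP2 ranged from -0.11 to 0.059 and ACTC1 from -0.030 to 0.28. The cause was not tested.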
